A study of Mus musculus with 36 samples.

Results

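Kmt2a and the genes of its cofactors and elongation partners were followed over sorted blood progenitors of mice that carry a Kmt2a-AFF1 fusion. The set held 9 genes, Kmt2a, Aff1, Aff4, Men1, Psip1, Dot1l, Mllt1, Mllt3 and Mllt10, matched by symbol to 9 of 55414 gene identifiers in the deposited tables. In bone marrow (BM), Mllt3 was lower in leukaemia than in control c-Kit+ Sca-1- (LK) cells. In stem-like (HSC) cells it was lower in fits restricted to genes above background, while the main test over all genes with counts did not call it. Aff1 was higher in leukaemia HSC and lymphoid-primed (LMPP) cells. No gene of the set passed the test between central nervous system (CNS) and BM cells of the same mice.

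The 36 libraries formed 9 groups of 4. The leukaemia groups came from 12 mice that overexpressed a microRNA together with Kmt2a-AFF1 and had developed terminal leukaemia. The sample labels name this microRNA miR-130b and the design text of the series names miR-130a. Each leukaemia mouse gave 1 CNS and 1 BM library of a single sorted type: HSC/MPP, LMPP or LK/CLP. The first and last are shortened to HSC and LK. All 3 were lineage-negative and c-Kit+; LK cells were Sca-1-, and of the Sca-1+ cells those with Flt3 were LMPP and those without it HSC. The control groups came from BM of 4 non-leukaemic mice with miR-scramble in place of the microRNA, each giving 1 library of all 3 types. All groups thus carried the fusion. The sources used here give neither the promoter that drives the transgenes, nor strain, age or sex. Leukaemia and control libraries stand in separate tables and separate mice, so disease, microRNA and table cannot be told apart.

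Kmt2a encodes a histone H3 lysine methyltransferase that keeps Hox genes active in blood stem cells. Menin (Men1) and LEDGF (Psip1) bind its amino-terminal part and hold it on chromatin. In the leukaemia fusions that part is joined to a protein of the transcription elongation machinery. AFF1 and AFF4 are scaffolds of the super elongation complex, and MLLT1 (ENL) and MLLT3 (AF9) are YEATS-domain readers of acetylated histones that bind the same scaffolds. DOT1L, the histone H3 lysine 79 methyltransferase, is bound by MLLT10 (AF10) and by MLLT1 or MLLT3. Reads from the mouse Kmt2a part of the fusion transcript would be counted with Kmt2a, and the counts do not separate them. The labels write AFF1 in human capitals, and whether reads of the fusion's AFF1 part were counted with mouse Aff1 was not tested.

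The 2 candidate microRNAs share a seed, bases 2 to 8 in capitals below, in the RefSeq sequences of GRCm38.p6. They are shown because the leukaemia and control groups differ in this microRNA and because the labels and the design text name different ones.
mmu-miR-130a-3p: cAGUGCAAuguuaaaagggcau
mmu-miR-130b-3p: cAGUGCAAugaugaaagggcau
The first maps to chr2:84741116-84741137 on the minus strand and the other to chr16:17124071-17124092 on the minus strand. The letters complementary to the seed, TTGCACT, were searched on the sense strand of the 3′ untranslated region of the longest coding transcript of each gene in the GENCODE annotation of GRCm38. They were present in 4 of the 9 genes and in 9.93% of 20939 genes of any length. The region is long in 3 of those 4: it spans 4547 bases in Kmt2a, 4499 in Aff1 and 6315 in Aff4, and among genes within 20% of these lengths 30.1%, 29.4% and 37.8% held the letters. Mllt10, with 1576 bases, was the fourth, and 11.7% of genes of like length held them. The matches are given below with the complementary letters in capitals.
Kmt2a, chr9:44805523-44805551, minus strand: tttccttcttaTTGCACTgtgtgaggttt
Aff1, chr5:103851329-103851357, plus strand: gaaggactccaTTGCACTccccttactgc
Aff1, chr5:103852872-103852900, plus strand: gtctgtagctaTTGCACTgctggttttcc
Aff4, chr11:53418546-53418574, plus strand: ctgggaagctcTTGCACTagggatttaca
Mllt10, chr2:18210954-18210982, plus strand: ttgttgctttgTTGCACTgaaatggaatt
Mllt3 has a region of 4090 bases with none of these letters, a length at which 25.2% of genes have them. The directions that follow are from the fit over genes above background, described below. Of the genes with the letters, Aff1, Aff4 and Mllt10 were higher in leukaemia than in control HSC and LMPP cells. Kmt2a did not pass. Of the genes without the letters, Dot1l and Mllt1 were higher in both types, Men1 in HSC only and Psip1 in LMPP only. Mllt3, also without the letters, was lower, with the fit and its limits given below. The main test, over all genes with counts, called the 8 genes other than Mllt3 higher in both types, Kmt2a included. A match is a description of the letters and not of a site in use.

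Library totals ran from 1909638 to 30442297 counts. Sensory receptor genes, taken as silent in blood cells, carried counts in every library, and their counts per kb set a uniform background for each. In leukaemia libraries it made up 0.0854 to 26.4% of the total. Control libraries had 21.1 to 27.4% for HSC, 13.6 to 26.6% for LMPP and 6.41 to 12.3% for LK. Levels are given as CPM, the field's usual read count relative to a fixed library total, scaled over the 17081 genes above background in either table, and net CPM are the same after the background for the gene's exon length was removed. Each comparison is quoted from 2 fits. The main test scaled over all genes that reached 10 counts in 4 or more libraries. Many of these lie at background, and this scale moved genes above background by up to 1.63 on the log2 scale between control groups. The second scaled and tested only genes above background, and results lead with it. In leukaemia 2 libraries stood apart and were left out together in further fits: BM LMPP 3 had the lowest total, and CNS HSC 1 had 1973 CPM of 9 microglia genes, while no other library had over 336 CPM. A further library, BM LMPP 1, had 4531 CPM of 8 mature neutrophil genes and 2895 CPM of 5 myeloid progenitor genes, where the other 3 of its group had 9.16 to 24.1 CPM and 231 to 683 CPM. Fewer cells of a type and less RNA per cell cannot be told apart in bulk samples.

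Per kb of exon, Aff1 had the highest mean level over the 36 libraries, at 16.3 CPM per kb. Kmt2a followed at 13.2, Mllt1 at 12.5, Psip1 at 12.2, Men1 at 11.7, Dot1l at 10.9, Mllt10 at 9.62 and Aff4 at 7.79 CPM per kb. The group means of these 8 genes overlapped broadly. Mllt3 was far below them at 2.42 CPM per kb, and its highest group, at 5.19 CPM per kb, lay under the lowest group of every gene but Aff4, whose lowest group was at 4.55. With 12.004 kb of exon and a low level, it had much of its counts from background: 80.0 to 81.7% in the 4 libraries with the highest share.

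**Figure D1:**
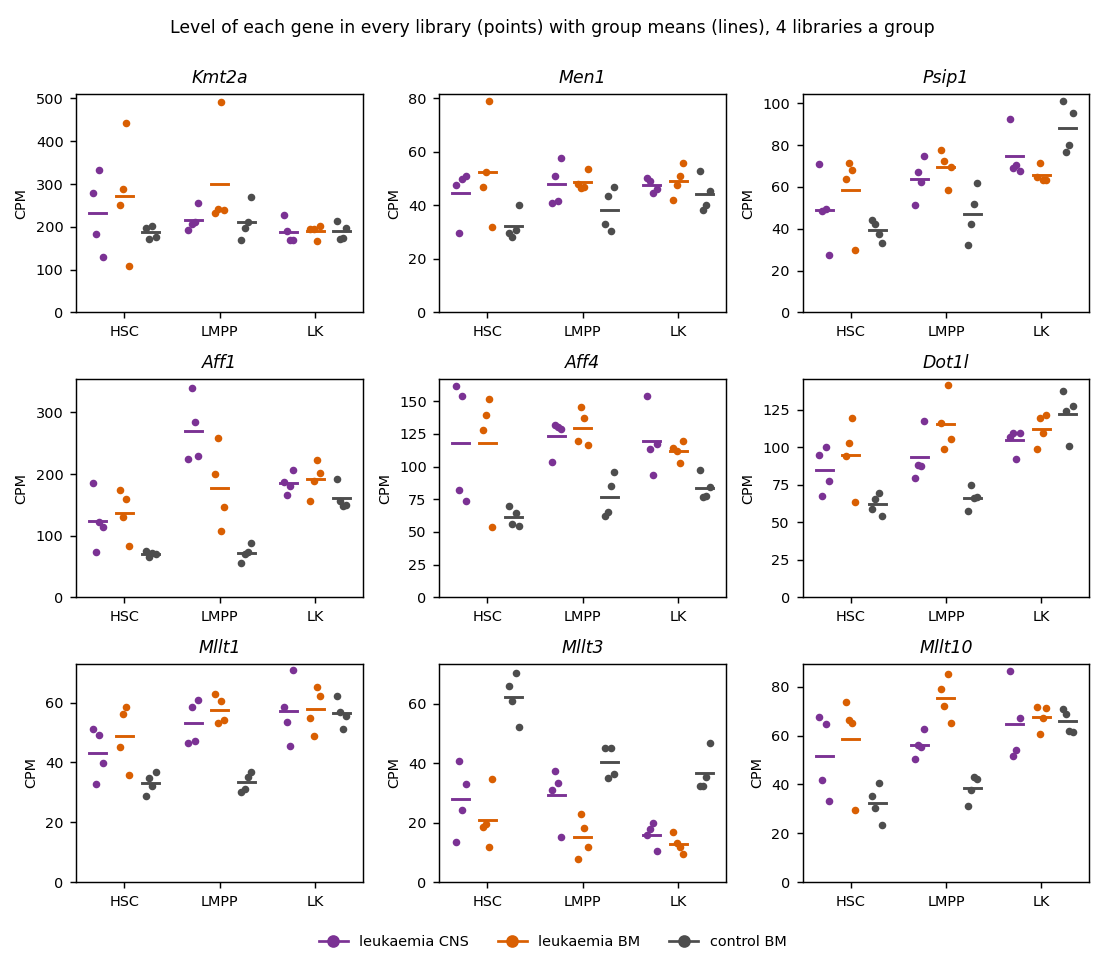
Level in CPM (vertical axis from 0) of the 9 genes by sorted cell type (horizontal axis); each point is 1 of 4 libraries and each line a group mean, with leukaemia CNS in purple, leukaemia BM in orange and control BM in grey. Mllt3 is the gene whose control libraries lie above leukaemia BM in every cell type, at a mean of 62.3 CPM in control HSC. Aff1, like all the genes but Kmt2a and Mllt3, is lowest in control HSC and LMPP, at means of 70.7 and 71.7 CPM.

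Mllt3, the YEATS-domain reader linked to stem cell maintenance in human blood, was lower in leukaemia than in control BM HSC and LK cells. It had 18.4, 19.5, 11.9 and 34.6 CPM in leukaemia BM HSC, against 65.9, 60.9, 70.3 and 52.1 CPM in control BM HSC. No leukaemia library reached the lowest control library. In the fit over genes above background the log2 fold change in HSC was -1.64 ± 0.29 (SE, adjusted p = 0.000129, edgeR's quasi-likelihood test with Benjamini-Hochberg adjustment, n = 4 against 4). Background supplied 46.2 to 80.0% of the Mllt3 counts in leukaemia BM HSC libraries and 37.0 to 50.5% in control BM HSC libraries. None of these HSC libraries reached 3 times background, and Mllt3 entered this fit through other BM libraries. The main test, given below, did not call Mllt3 in HSC. The difference was no smaller after background was removed. Net levels were 9.51, 10.5, 3.58 and 6.91 CPM in leukaemia BM HSC, against 35.8, 31.4, 44.3 and 25.8 CPM in control BM HSC, and the fit on counts with background removed gave -2.60 ± 0.41 (adjusted p = 3.63e-05, edgeR). The LK cells showed a difference in the same direction. Net levels were 8.40, 5.01, 7.94 and 8.54 CPM in leukaemia BM LK, against 26.1, 22.2, 23.5 and 38.0 CPM in control BM LK. The groups did not overlap, and the log2 fold change was -1.52 ± 0.29 (adjusted p = 0.000715, edgeR), or -1.99 ± 0.40 with background removed.

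In LMPP cells the Mllt3 call was lost once background was removed. It had 7.74, 23.1, 18.3 and 11.9 CPM in leukaemia BM LMPP, against 45.1, 35.2, 45.0 and 36.3 CPM in control BM LMPP, a log2 fold change of -1.56 ± 0.30 (adjusted p = 0.000142, edgeR). Background supplied 47.0 to 81.7% of the Mllt3 counts in the control LMPP libraries. Net levels were 5.91, 21.8, 18.2 and 5.94 CPM in leukaemia BM LMPP, against 11.2, 6.42, 16.1 and 19.2 CPM in control BM LMPP, and these overlapped. With background removed the fit gave -0.85 ± 0.40 (adjusted p = 0.0794, edgeR), and the ratio of the net group means was -0.03 on the log2 scale. These values use different scales: net CPM kept the scale set before removal, while the fit was scaled anew after it. The main test, scaled over all genes with counts, gave Mllt3 -0.61 ± 0.31 in HSC (adjusted p = 0.19), 0.06 ± 0.31 in LMPP (adjusted p = 0.875) and -1.21 ± 0.31 in LK (adjusted p = 0.0176, edgeR). Of these calls that in LK held under all 3 fits, and in the main test it was lost without BM LK 2, BM LK 4 or control BM LK 4. The interaction of disease and cell type for Mllt3 gave adjusted p = 0.967 over genes above background and 0.0586 with background removed.

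**Figure D2:**
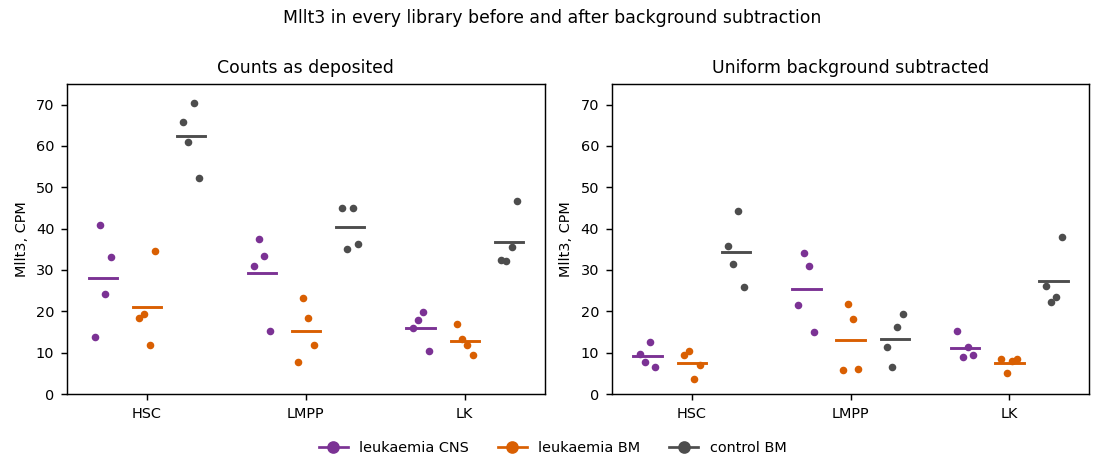
Mllt3 in CPM (vertical axis, the same range in both panels) by cell type, with counts as deposited on the left and after removal of the uniform background on the right; points are libraries and lines are means of 4. Control HSC and LK stay above leukaemia BM in both panels, at net means of 34.3 and 27.4 CPM, while control LMPP falls to a net mean of 13.2 CPM, beside 12.9 CPM in leukaemia BM LMPP. Net CPM keep the scale set before removal.

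Within control marrow, net Mllt3 had its lowest mean in LMPP cells. Net CPM kept the scale set before removal, and control HSC and LMPP libraries had a higher background share than LK. HSC averaged 34.3 ± 7.8 CPM, LMPP 13.2 ± 5.6 CPM and LK 27.4 ± 7.2 CPM (SD, n = 4 each). HSC exceeded LMPP in 4 of 4 mice and LMPP lay below LK in 4 of 4. Each gave p = 0.125 in an exact permutation test within mice (two-sided), the smallest p that 4 mice allow, so this design cannot reach 0.05. HSC and LK differed by less, 6.90 CPM (exact permutation p = 0.5 within mice). Mllt3 was not above background in enough control libraries to enter the second fit. The main test gave 0.55 ± 0.22 for HSC over LMPP on the log2 scale (adjusted p = 0.592) and -1.01 ± 0.22 for LMPP over LK (adjusted p = 0.000359, edgeR). For LMPP over LK that scale moved genes above background by a median of -1.46, so the call does not show a lower level in LMPP. As counted, without removal of background, Mllt3 averaged 40.4 CPM in control LMPP and 36.7 CPM in control LK.

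Aff1, a scaffold of the super elongation complex and the mouse gene of the fusion partner, moved the other way. It had 174, 130, 160 and 82.8 CPM in leukaemia BM HSC, against 75.3, 65.6, 71.5 and 70.3 CPM in control BM HSC. In LMPP cells it had 199.7, 259, 107 and 147 CPM in leukaemia BM, against 55.2, 70.5, 73.2 and 88.1 CPM in control BM. The groups did not overlap in either type. The log2 fold changes were 0.87 ± 0.22 in HSC (adjusted p = 0.00323) and 1.23 ± 0.22 in LMPP (adjusted p = 6.77e-05, edgeR over genes above background), and 0.86 ± 0.21 and 1.09 ± 0.21 with background removed. LK cells had 156, 188, 223 and 201 CPM in leukaemia BM, against 192, 156, 148 and 149 CPM in control BM. These overlapped, and the fold change was 0.24 ± 0.22 (adjusted p = 0.488, edgeR).

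Aff4, the scaffold paralogue of Aff1, averaged 118 ± 43.9 CPM in leukaemia BM HSC and 61.2 ± 7.2 CPM in control BM HSC (SD, n = 4 each). It was higher by 0.86 ± 0.21 in HSC (adjusted p = 0.00201) and by 0.65 ± 0.21 in LMPP (adjusted p = 0.00783, edgeR over genes above background, log2). Mllt10, the DOT1L cofactor, was higher by 0.76 ± 0.20 and 0.87 ± 0.20 in these types. Mllt1, the paralogue of Mllt3, was higher by 0.48 ± 0.14 and 0.69 ± 0.14, so the 2 YEATS-domain genes moved in opposite directions in leukaemia HSC. Dot1l was higher by 0.53 ± 0.16 and 0.70 ± 0.16. In CPM, leukaemia and control BM libraries overlapped in HSC for Aff4, Mllt10, Mllt1 and Dot1l, unlike for Aff1. In LMPP they did not overlap. These 5 genes, Aff1 included, also passed the test in both types after background was removed.

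The cofactors of the amino-terminal part of KMT2A gave less. Men1 rose by 0.63 ± 0.20 in leukaemia HSC (adjusted p = 0.0122, edgeR), while in LMPP it gave 0.25 ± 0.20 (adjusted p = 0.266). Without BM HSC 3 the Men1 call was lost, at 0.38 (adjusted p = 0.0877). Psip1 gave 0.48 ± 0.20 in both types, with adjusted p = 0.0544 in HSC and 0.0409 in LMPP, and with background removed the LMPP value was 0.24 ± 0.23 (adjusted p = 0.381, edgeR). The Psip1 call in LMPP was also lost without BM LMPP 1, 2 or 4 or control LMPP 1 or 2, at 0.34 to 0.48 (adjusted p = 0.0625 to 0.15). In HSC Psip1 passed without BM HSC 4, at 0.68 (adjusted p = 0.000989), or without control LMPP 1, 3 or 4 (0.0254 to 0.0472). Kmt2a itself had 252, 289, 444 and 108 CPM in leukaemia BM HSC, against 198, 171, 202 and 175 CPM in control BM HSC. The leukaemia libraries spread over both sides of the control range, and the log2 fold change of 0.46 ± 0.28 did not pass (adjusted p = 0.167, edgeR). It was 0.13 (adjusted p = 0.703) without BM HSC 3, and 0.72 with a call (adjusted p = 0.00867) without BM HSC 4. In LMPP it had 232, 241, 492 and 240 CPM in leukaemia BM, against 170, 197, 212 and 269 CPM in control BM. The highest value belonged to BM LMPP 3, the library with the lowest total. Without that library the fold change of 0.41 ± 0.28 became 0.07 (adjusted p = 0.825, edgeR).

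Over genes above background, 6 of the 9 genes were higher and 1 was lower in leukaemia HSC, where 48.1% of 15591 genes tested were called, 27.7% higher and 20.4% lower. In LMPP 6 were higher and 1 lower, where 65.7% of genes were called, 33.2% higher and 32.4% lower. In LK only Mllt3 was called, where 16.7% of genes were, 6.89% of them lower as a share of all tested. The share of the 9 called, 7 of 9, was nearer to the share of all genes in LMPP than in HSC. The median log2 fold change of the 9 was 0.53 in HSC, 0.65 in LMPP and 0.02 in LK, beside -0.03, 0.02 and -0.04 over all genes tested. The main test called 8 of 9 higher in HSC (20.3% of 43483 genes higher, 21.4% in either direction) and 8 of 9 in LMPP (26.0% higher, 62.8% in either direction), and Mllt3 alone in LK (3.52%), with all fold changes in HSC and LMPP raised by a median of 1.18 and 1.61 over genes above background. Background share moved with this comparison: control HSC and LMPP libraries had the most of it, and the 8 genes other than Mllt3 had r of -0.44 to -0.85 with background share over the 24 leukaemia libraries, where Mllt3 had 0.56. With background removed 7, 5 and 1 of the 9 were called in HSC, LMPP and LK, where 44.0%, 52.1% and 12.6% of genes were. The 5 of 9 in LMPP was near the share of all genes. The medians of the 9 were then 0.52, 0.46 and -0.05, beside 0.18, 0.26 and -0.03 over all genes tested. Myeloid progenitor genes also differed: 5 such genes summed to 1202 to 1809 CPM in leukaemia BM HSC and 103 to 145 CPM in control BM HSC, and to 2162 to 3563 CPM in leukaemia BM LK and 6393 to 9578 CPM in control BM LK. In LMPP they summed to 231 to 2895 CPM in leukaemia BM and 99.7 to 155 CPM in control BM. The 8 mature neutrophil genes summed to 454 to 1439 CPM in leukaemia BM HSC and 77.3 to 110 CPM in control BM HSC, to 9.16 to 4531 CPM in leukaemia BM LMPP and 70.3 to 121 CPM in control BM LMPP, and to 599 to 12114 CPM in leukaemia BM LK and 27.4 to 38.9 CPM in control BM LK. A set of 7 erythroid genes summed to 45.4 to 208 CPM in leukaemia BM LK and 488 to 706 CPM in control BM LK. The part of these genes in the result was not tested.

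**Figure D3:**
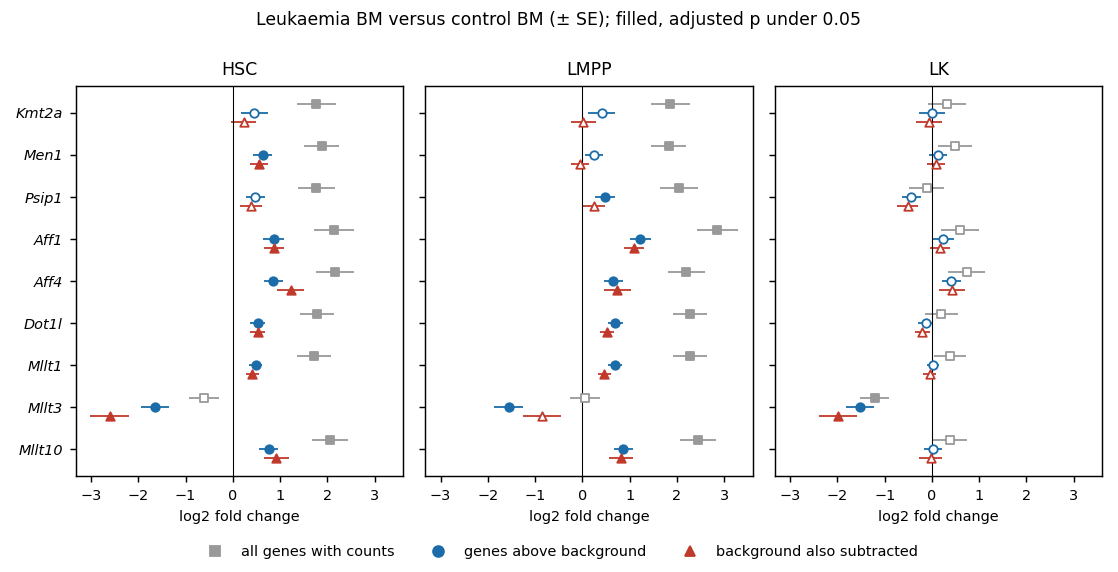
Log2 fold change (horizontal axis, bars ± SE) of the 9 genes in leukaemia BM versus control BM for HSC, LMPP and LK cells; grey squares use all genes with counts, blue circles genes above background and red triangles counts with background removed, filled where adjusted p is under 0.05. Mllt3 lies left of the other 8 genes in all 3 panels, at -1.64 in HSC over genes above background, while Aff1 reaches 1.23 in LMPP.

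The difference between leukaemia and control depended on cell type for 5 of the 9 genes. The interaction passed for Dot1l (adjusted p = 0.0157), Psip1 (0.0215), Mllt1 (0.0287), Mllt10 (0.0393) and Aff1 (0.0454, edgeR over genes above background), where 30.8% of all genes tested passed. The main test called the same 5, where 12.6% of genes passed. With background removed, where 24.8% of genes passed, only Dot1l did (adjusted p = 0.0225) and Aff1 gave 0.0514. Psip1 had 0.48 in HSC and LMPP and -0.44 ± 0.20 in LK (adjusted p = 0.138), where it had 63.5 to 71.2 CPM in leukaemia BM and 76.6 to 101 CPM in control BM. Leaving out single libraries gave between 1 and 6 calls over genes above background. It was 1 without control BM LK 1, 2 without BM LMPP 1, BM LK 1, BM LK 2, control LMPP 1 or control LMPP 2, and 3 without control HSC 2 or control LK 2, 3 or 4.

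Over genes above background, 5 of the 8 genes tested in control marrow were lower in HSC and in LMPP than in LK cells. Of all genes tested, 33.8% were lower in HSC and 31.8% in LMPP. With background removed, 4 of the 8 were lower in HSC and 3 in LMPP. Aff1 had 75.3, 65.6, 71.5 and 70.3 CPM in HSC and 55.2, 70.5, 73.2 and 88.1 CPM in LMPP, against 192, 156, 148 and 149 CPM in LK cells of the same 4 mice. On the common scale of these CPM the log2 ratio of its mean to that in LK was -1.19 in HSC and -1.17 in LMPP. The fit used another scale, set over genes above background of the control libraries alone. Against LK the Aff1 log2 fold change was -0.79 ± 0.12 in HSC (adjusted p = 1.17e-05) and -0.84 ± 0.12 in LMPP (adjusted p = 7.64e-06, edgeR over genes above background, log2). Psip1 gave -0.75 ± 0.14 and -0.58 ± 0.13, Mllt10 -0.60 ± 0.13 and -0.45 ± 0.13, Dot1l -0.58 ± 0.12 and -0.55 ± 0.12, and Mllt1 -0.38 ± 0.11 and -0.43 ± 0.10, and all passed. With background removed, Mllt1 no longer passed in either type (adjusted p = 0.185 and 0.0963) and Mllt10 no longer in LMPP (0.0664), where 63.5% of genes were called in HSC and 54.7% in LMPP. Aff4 and Men1 did not pass, with values between -0.08 and 0.20. Between HSC and LMPP 0 of the 8 genes tested passed, where 2.20% of genes were called. The smallest adjusted p was 0.315, for Aff4, and at an unadjusted p under 0.05 the 8 genes gave 0 calls, where 16.9% of all genes tested did. The main test also called 0 of 9, where 0.183% of genes were called.

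Kmt2a changed direction with the scale in control marrow. It had 198, 171, 202 and 175 CPM in HSC and 170, 197, 212 and 269 CPM in LMPP, against 214, 172, 174 and 196 CPM in LK cells, and these overlapped. On this common scale the ratio of HSC to LK means was -0.02 in log2. The fit over genes above background in the control table gave 0.38 ± 0.13 in HSC (adjusted p = 0.0147) and 0.48 ± 0.13 in LMPP (adjusted p = 0.00335), and the main test gave -1.27 ± 0.29 (adjusted p = 0.000591) and -0.98 ± 0.29 (adjusted p = 0.00722, edgeR). Relative to the median gene above background it was thus the only one of the 8 that was called higher in the Sca-1 positive types. In all, 6 of 8 genes passed in HSC against LK, where 70.7% of 11277 genes were called, and 6 of 8 in LMPP against LK, where 66.5% were; shares near the background are no result about this set. The main test called 8 and 9 of 9 genes lower, where 25.0% and 24.5% of 41609 genes were lower and 44.7% and 39.8% were called in either direction, and it moved genes above background by a median of -1.63 and -1.46.

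**Figure D4:**
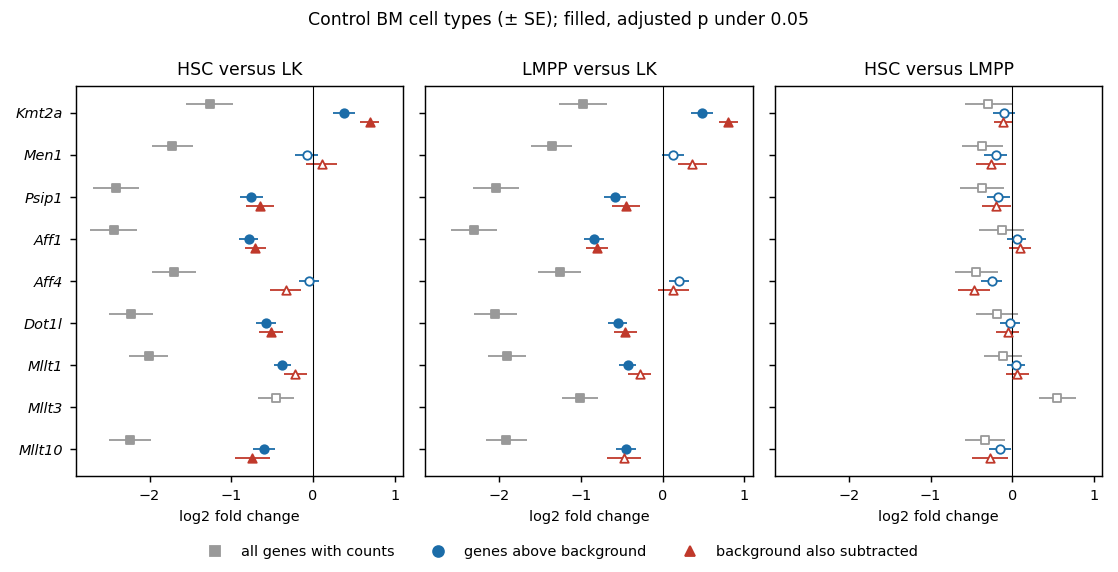
Log2 fold change (horizontal axis, bars ± SE) of the genes between sorted types of control BM; grey squares use all genes with counts, blue circles genes above background and red triangles counts with background removed, filled where adjusted p is under 0.05. Kmt2a lies left of 0 in the grey fit (-1.27 in HSC versus LK) and right of 0 in the blue fit (0.38), and Mllt3 has a grey value only.

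Among leukaemia groups Aff1 had its highest mean in CNS LMPP cells. It had 185, 72.8, 122 and 114 CPM in CNS HSC, against 224, 340, 284 and 229 CPM in CNS LMPP, with no overlap. The value for HSC against LMPP was -1.09 ± 0.27 (log2, adjusted p = 0.0164, edgeR over genes above background), and -0.88 ± 0.21 with background removed (adjusted p = 0.0267, where 4.31% of genes were called). It was the only one of 9 called, where 12.9% of 16231 genes were, and the main test gave -1.65 ± 0.55 without a call (adjusted p = 0.188, where 0.0595% of genes were called). Without the 2 libraries that stood apart the value was -1.34 (adjusted p = 0.00125), where 34.9% of genes were called. CNS LMPP also lay above CNS LK, which had 187, 167, 181 and 207 CPM, but that difference of 0.52 ± 0.26 did not pass (adjusted p = 0.445). In BM the value for HSC against LMPP was -0.37 ± 0.26 (adjusted p = 0.388). Mean Aff1 there was 178 CPM in LMPP and 192 CPM in LK, with -0.10 ± 0.26 for LMPP against LK (adjusted p = 0.993). A set of 6 border macrophage genes summed to a median of 245 CPM in CNS LMPP (28.9 to 285), 175 CPM in CNS HSC (107 to 1043) and 42.1 CPM in CNS LK (34.0 to 55.6), and their part in the Aff1 and Mllt3 values was not tested.

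No other gene of the set passed between leukaemia cell types over genes above background, where 7.50% of genes were called for CNS HSC against LK, 0.351% for CNS LMPP against LK and, in BM, 0.0308% for HSC against LK, 0.00616% for LMPP against LK and 0.0678% for HSC against LMPP. The main test called 0 of 9 in each, where 0.00496% of genes were called for CNS LMPP against LK and none for CNS HSC against LK or in BM. At an unadjusted p under 0.05, 4 of the 9 passed in CNS HSC against LK over genes above background, where 33.7% of all genes tested did. Leaving out CNS HSC 1, the library rich in microglia genes, took the main test to 3 calls in this comparison. The share of all genes called in that fit is not given here, so the 3 calls are no result about this set. Over genes above background and without the 2 libraries that stood apart, Psip1 at -0.82 (adjusted p = 0.0193), Aff1 at -0.82 (0.0222) and Mllt3 at 1.05 (0.0436, edgeR) were called in CNS HSC against LK, where 27.5% of genes were. Mllt3 in CNS HSC was 48.0 to 81.2% background in the 3 remaining libraries, and its net level there was 6.49 to 12.6 CPM, against 8.89 to 15.1 CPM in CNS LK.

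Net Mllt3 was highest among leukaemia groups in CNS LMPP cells, at 21.6, 34.1, 31.0 and 14.9 CPM, against 9.79, 7.66, 12.6 and 6.49 CPM in CNS HSC and 15.1, 8.89, 11.4 and 9.42 CPM in CNS LK. CNS LMPP and CNS HSC did not overlap, though HSC against LMPP did not pass with background removed (-0.95 ± 0.41, adjusted p = 0.156, edgeR). Aff1 and net Mllt3 thus had their highest leukaemia means in the same group. As counted, without removal of background, Mllt3 had r of -0.78 to -0.24 with the other 8 genes over the 24 leukaemia libraries and -0.74 to -0.16 over the 12 control libraries. The 28 pairs among the other 8 had a median r of 0.63 and 0.66. These correlations are on log2 CPM and share the background and depth of each library.

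No gene of the set passed between CNS and BM cells of the same mice. Over the 12 mice and genes above background, with mouse as a block, Mllt3 gave the largest difference, 0.54 ± 0.17 on the log2 scale (adjusted p = 0.115), and 0.74 ± 0.21 with background removed (adjusted p = 0.0855, edgeR). It was higher in CNS in 9 of 12 mice, and in 10 of 12 by net level. The 4 LMPP mice had 30.9, 37.4, 33.4 and 15.2 CPM in CNS, against 7.74, 23.1, 18.3 and 11.9 CPM in BM, higher in CNS in 4 of 4. Aff1 was also higher in CNS in 4 of 4 LMPP mice, at 224, 340, 284 and 229 CPM in CNS against 199.7, 259, 107 and 147 CPM in BM. Its value was 0.60 ± 0.22 (adjusted p = 0.222), or 0.64 ± 0.17 with background removed (adjusted p = 0.0713). The largest of these 4 Aff1 differences came from the mouse of BM LMPP 3. The 6 border macrophage genes summed to 28.9 to 285 CPM in CNS LMPP and 27.8 to 60.8 CPM in BM LMPP, and the 9 microglia genes to 65.6 to 336 CPM and 36.5 to 78.5 CPM. Their part in these differences was not tested. Over HSC and LK mice Aff1 was higher in CNS in 2 of 4 each.

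Mllt10 was higher in CNS in 2 of 12 mice, with -0.24 ± 0.09 over all cell types (adjusted p = 0.231, edgeR with mouse as a block). Dot1l was higher in CNS in 4 of 12 mice, with -0.20 ± 0.10 (adjusted p = 0.417). Kmt2a (-0.21 ± 0.12), Mllt1 (-0.12 ± 0.10), Men1 (-0.11 ± 0.12), Psip1 (-0.09 ± 0.09), Aff4 (-0.01 ± 0.10) and Aff1 (0.12 ± 0.13) had differences within 2 SE of 0. Of the 9, 0 passed, where 2.36% of 16231 genes were called, and 2 of the 9 had an unadjusted p under 0.05, as did 12.7% of all genes. In LMPP 0 of 9 passed, where 1.85% of genes were called, and 3 of 9 had an unadjusted p under 0.05, as did 1950 of 16231 genes. Without the mouse block, and in the main test, 0 of 9 passed in any cell type and no gene of the table was called (edgeR), and over all cell types 1 of 9, Mllt3, had an unadjusted p under 0.05, as did 9.11% of all genes above background and 1.97% in the main test. The interaction of niche and cell type called none of the 9 and no gene of the table, by edgeR with or without the block. At an unadjusted p under 0.05 it gave 1 of 9 with the block and 0 without it, over genes above background. A p that misses the threshold does not show that the niches are alike.

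**Figure D5:**
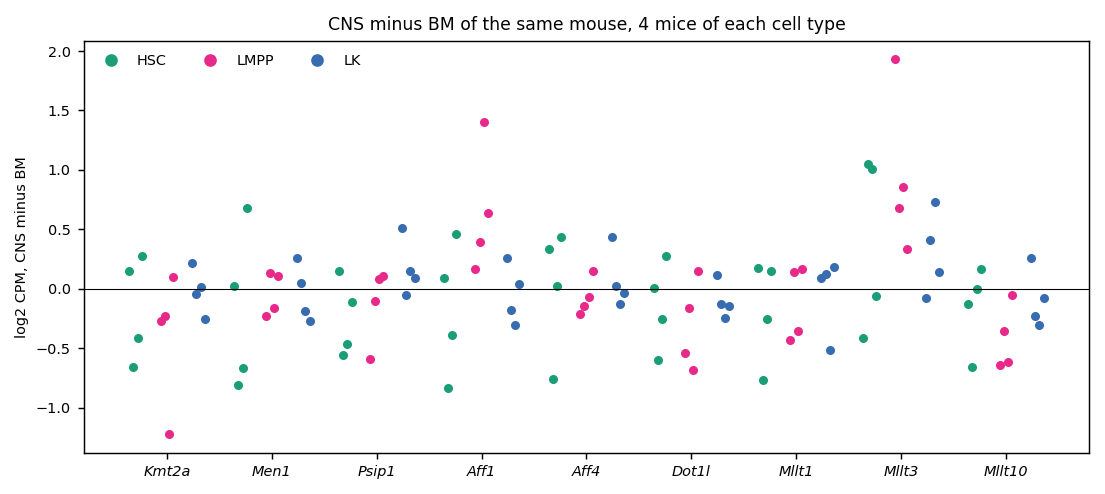
Log2 CPM of CNS minus that of BM in the same mouse (vertical axis) for the 9 genes; each point is 1 of 12 mice, with HSC in green, LMPP in pink and LK in blue. The 4 LMPP mice lie above 0 for Mllt3 and Aff1, and the Mllt3 differences run from -0.42 to 1.93.

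Related genes in 3 lists were counted beside the set. Of 16 measured genes of the wider Kmt2 methyltransferase complexes, 10 rose and 0 fell in leukaemia HSC, and 12 rose and 0 fell in leukaemia LMPP, with medians of 0.48 and 0.69. They were led in HSC by Dpy30, a core subunit, at 1.28 ± 0.22. Of 21 elongation genes, 16 rose and 1 fell in HSC and 17 rose and 0 fell in LMPP, with medians of 0.66 and 0.78. Cdk9, the kinase of P-TEFb, rose by 0.92 ± 0.14 in LMPP, and Supt16, a FACT histone chaperone subunit, by 1.20 ± 0.21 in HSC. Of 11 partners of menin, LEDGF and DOT1L, 8 rose and 2 fell in HSC and 8 rose and 1 fell in LMPP. Brpf1, a scaffold of histone acetyltransferase complexes, rose by 0.81 ± 0.13 and 1.24 ± 0.14, while the Polycomb protein gene Cbx8, whose human protein binds MLLT3, fell by 0.74 and 1.14 on the log2 scale. In these comparisons 27.7% and 33.2% of all genes tested rose.

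In leukaemia LK, 0 of 16, 4 of 21 and 3 of 11 genes of these lists were called, where 16.7% of all genes were. Ell2, an elongation factor, fell by 1.29 on the log2 scale and Aff3, a lymphoid paralogue of Aff1, rose by 1.19 ± 0.35. In control marrow 0 complex genes were higher in HSC than in LK and 9 of 15 were lower, and 1 of 19 elongation genes was higher and 13 were lower, where 36.9% of all genes tested were higher and 33.8% lower. With background removed 0 complex genes were higher and 7 lower, and 2 elongation genes were higher and 11 lower, where 63.5% of genes were called. Supt16 lay at -1.72 ± 0.16 and Hdgf, a LEDGF relative, at -2.27 ± 0.19. Among leukaemia CNS cells, Ssrp1, another FACT subunit, had a value of -0.80 for HSC against LK on the log2 scale and Hdgf one of -0.95. In that comparison 7.50% of all genes tested were called. Jund, a menin-bound transcription factor gene, had a value of -1.63 for HSC against LMPP, where 12.9% were. These genes were named because they passed, and the list counts for these comparisons are not given here. No gene of the 3 lists was called between CNS and BM over genes above background without the mouse block. With it Ctr9, a subunit of the PAF1 elongation complex, was called at -0.52 ± 0.12 over all cell types (adjusted p = 0.0325) and Jund at 0.67 ± 0.15 (adjusted p = 0.0325), where 2.36% of genes were called. Jund was also called in LMPP, at 1.07 ± 0.26 (adjusted p = 0.0478, edgeR), where 1.85% were. Values are from edgeR over genes above background, and control HSC and LMPP libraries had the higher background share in these comparisons too.

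For each gene the 2 other genes above background with the highest Pearson r of log2 CPM over the 24 leukaemia libraries were picked. Kmt2a was most like Hoxa5 (r = 0.92, and 0.54 over 12 control libraries) and Chd6 (0.91 and 0.83). Aff1 was most like Rab7 (0.96 and 0.96) and Uggt1 (0.95 and 0.97), and Aff4 like Zmym2 (0.96 and 0.93) and Ash1l (0.95 and 0.81). Psip1 had Zfr (0.94 and 0.98) and Skp1a (0.93 and 0.98), Men1 had Phf8 (0.84 and 0.27) and Tmem164 (0.83 and 0.60), and Dot1l had Ern1 (0.93 and 0.75) and Lyl1 (0.91 and 0.78). Mllt1 had Tsc22d4 (0.92 and 0.89) and Cherp (0.92 and 0.94), and Mllt10 had Hnrnph1 (0.95 and 0.92) and Atrx (0.95 and 0.91). Mllt3 was most like Slc22a23 (0.92 and 0.65) and Habp4 (0.92 and 0.57). These r values are descriptions over libraries that share depth and background.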

How the data were processed

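RNA of sorted cells was made into libraries with a SMARTer stranded kit for total RNA (Pico input), per the labels' protocols. GRCm39 and DESeq2 are named in the submitters' processing notes, while no aligner, counter or strand setting is named in the sources used here. The authors deposited 2 tables of whole-number counts per gene, 24 leukaemia and 12 control libraries over 55414 identifiers; the values are raw counts, although the table is described as normalised. Identifiers without a symbol (3333) took 8.42 to 47.4% of counts. Without a stated strand, reads of Kmt2a, Mllt10 and Psip1 cannot be told apart from those of the opposite-strand genes AC061963.1, Dnajc1 and Snapc3, which overlap 2.27%, 12.7% and 9.50% of their exon bases.

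Tests used edgeR 4.0.16 (R 4.3.3), the quasi-likelihood test with TMM scaling and Benjamini-Hochberg adjustment over all genes tested, called at 0.05, in separate fits of the 24 leukaemia, 12 control and 24 BM libraries. The main test took genes that reached 10 counts in 4 or more libraries. A uniform background per kb of exon was estimated in each library from 1515 sensory receptor genes (trimmed mean, 0.1 from each end), and genes above background had over 3 times that background plus 10 counts in at least 4 libraries: 16231 leukaemia, 11277 control and 15591 joint BM genes. Exon lengths came from GENCODE annotation of GRCm38, another build than the authors'. Net CPM are CPM minus that background, on the scale set before removal. Fits with background removed were scaled anew after it. Alternatives were no filter, RLE scaling, DESeq2 1.42.0, limma-trend (limma 3.58.1) on log2(CPM + 1), background removal, libraries left out, and blocks. Background removal over genes above background, single libraries or the 2 libraries left out of that fit, and the mouse block in that fit with background removed or in control BM were chosen after seeing the data.

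CNS and BM libraries with the same mouse identifier in the labels were paired: their deviations from group means had r of -0.38 to 0.70 (median 0.26) over 12 pairs. Control types of a mouse had r of -0.45 to 0.15 (median -0.02). No 2 replicates agreed within sampling noise (lowest chi-square per degree of freedom 2.87 over 54 pairs). The 9 genes and the lists were chosen with earlier results of these data known. All 9 are named in each comparison, and of each related list at most the 3 called genes of smallest p. Intervals and errors cover the spread between these libraries.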

Additional observations from a re-analysis of the deposited data

Results flagged for a closer look

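Of 81 sets of 4 libraries (9 genes in 9 groups), 7 had 1 library far from the other 3 by Dixon's ratio, where chance gives about 1 in 20. Kmt2a had 492 CPM in leukaemia BM LMPP 3, the library with the lowest total, and 232 to 241 CPM in the other 3. Kmt2a had 167 CPM in leukaemia BM LK 3 and 195 to 201 CPM in the others. Psip1 had 71.2 CPM in leukaemia BM LK 2 and 63.5 to 64.8 CPM in the others, and 92.3 CPM in leukaemia CNS LK 1 and 67.6 to 70.4 CPM in the others. Dot1l had 92.3 CPM in leukaemia CNS LK 3 and 107 to 109.8 CPM in the others. Aff4 had 103 CPM in leukaemia CNS LMPP 1 and 129 to 132 CPM in the others. Men1 had 29.7 CPM in leukaemia CNS HSC 2 and 47.5 to 51.1 CPM in the others.

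The difference between leukaemia and control BM varied with cell type in the main test for Dot1l (adjusted p = 0.00875), Psip1 (0.00924), Mllt10 (0.0114), Mllt1 (0.0166) and Aff1 (0.0176), from the interaction term of edgeR. Each of the 5 had its lowest fold change in LK, at -0.44 to 0.24 over genes above background. Background share was lower in control LK than in the other control types. With background removed from genes above background, 1 of the 9 genes, Dot1l, passed the interaction, where 24.8% of genes did. The part of background beyond this removal was not tested.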

How the results depend on the processing

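The counts of genes called in each comparison stayed within 1.5 times the main count under 204 of 217 alternatives that kept all replicates or left out the 2 libraries together, and under 531 of 552 that left out 1 library. In leukaemia CNS HSC against LMPP, 0 genes were called in the main test, 1 over genes above background, with or without background removed, or with RLE scaling, DESeq2 or limma-trend, 0 with background removed from all genes with counts, and 3 without the 2 libraries that stood apart. In leukaemia CNS HSC against LK 0 became 3 without these libraries in either fit. Over genes above background and without these libraries, 27.5% of all genes were called for HSC against LK and 34.9% for HSC against LMPP. Shares are not given for every alternative, so the changed counts are no result about this set. With background removed from genes above background, counts were 5 and 4 in control HSC and LMPP against LK, 5 in leukaemia against control LMPP and 1 for the disease interaction. Single libraries left out gave 0 to 3 calls in both leukaemia CNS comparisons (3 without CNS HSC 1), 0 to 1 in leukaemia against control LK (0 without BM LK 2, BM LK 4 or control BM LK 4) and 1 to 3 there over genes above background (3 without BM HSC 4), and 3 to 8 and 1 to 6 for the interaction. Signs turned against the main test over genes above background (with or without the mouse block) and with background removed: in control HSC against LK, Kmt2a to 0.38 and 0.70 and Men1 to 0.10 in the second; in control LMPP against LK, Kmt2a to 0.48 and 0.81, Aff4 to 0.20 and 0.13 and Men1 to 0.12 and 0.37; in leukaemia against control LMPP, Men1 to -0.042 in the second. Mllt3 in that comparison turned to -1.56 over genes above background and to -1.23 with RLE scaling or DESeq2. With 1 library left out, the value over genes above background ran from -1.92 to -1.30. It was -1.45 without BM HSC 2, -1.57 without BM HSC 4 and -1.45 without BM LMPP 4. Without control LMPP 1 to 4 it was -1.49, -1.62, -1.39 and -1.62. Without BM LMPP 3 it was -1.63, and CNS HSC 1, the other library that stood apart, is not in this fit. In leukaemia against control LMPP the main scale raised genes above background by a median of 1.61 on the log2 scale. The cause of the sign changes was not tested. The mouse block changed no count of calls: 0 of 9 between CNS and BM, 8, 9 and 0 in control BM, and 6, 6 and 0 there over genes above background. With a block on replicate number only, leukaemia against control gave 8, 8 and 1 and the interaction 4, against 5 in the main test. Background supplied up to 81.7% of the Mllt3 counts of a library and limits its values.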
